A study of Rattus norvegicus with 16 samples.

Results

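The genes described here are 6 matrix metalloproteinases, Mmp2, Mmp3, Mmp9, Mmp12, Mmp14 and Mmp16, and the 4 tissue inhibitors of metalloproteinases, Timp1, Timp2, Timp3 and Timp4, in the hippocampus of rats 24 h after traumatic brain injury (TBI). They were found by gene name among the 30367 non-control probes of a single-colour rat expression array, which gave 12 probes for the 10 genes, of 26583 gene names on the array. Mmp2 and Timp4 had 2 probes each, and the brighter of these is used unless the second is named. All 12 probes were among the 22827 that passed the filter on dim probes and were tested.

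Hippocampi came from adult male Sprague-Dawley rats, 1 rat per array, on 16 arrays. Naive rats (n = 3) were neither anesthetized nor handled, and Sham rats (n = 2) were anesthetized and prepared but not injured. TBI rats (n = 3) received a severe parasagittal fluid-percussion injury, in which a pulse of fluid strikes the dura through an opening in the skull. The remaining rats had the same injury and a drug: TBI+PMI (n = 3, PMI-006 at 250 mg/kg by gavage), TBI+JM6 (n = 3, JM6 at 400 mg/kg by gavage) and TBI+E33 (n = 2, estradiol at 33 ug/kg, given subcutaneously in the sample labels and IP in the methods). The hippocampus was taken whole, so each value is an average over all of its cells, and fewer cells of a type cannot be told apart from less RNA per cell.

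Metalloproteinases are zinc-dependent enzymes that cut proteins of the extracellular matrix and of the cell surface. Most are secreted as inactive precursors, while Mmp14 and Mmp16 are anchored in the membrane. The TIMPs bind the active site and block it, and the balance of enzyme and inhibitor bears on the opening of the blood-brain barrier and on the remodelling of matrix after brain injury. Timp1 is known as the inducible inhibitor, whereas Timp2, Timp3 and Timp4 are made in uninjured brain.

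Probes of the genes described most fully are shown, 60 bases each, in the sense of the transcript and with their positions on rn4. For Timp4 the second probe is shown, which was not called, and not the brighter one that carries its main value. Those of Timp1, Mmp12 and Mmp3 align over 1004, 357 and 466 bases of the genome, so each crosses a gap in the alignment, and the Mmp12 and Mmp3 probes lie close together on chromosome 8.
Timp1, chrX:12542700-12543703, minus strand: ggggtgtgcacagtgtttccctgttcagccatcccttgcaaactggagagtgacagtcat
Timp4 second probe, chr4:151375800-151375859, minus strand: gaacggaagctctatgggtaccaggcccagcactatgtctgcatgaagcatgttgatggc
Mmp12, chr8:4259057-4259413, plus strand: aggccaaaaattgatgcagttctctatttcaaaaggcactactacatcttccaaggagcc
Mmp3, chr8:4325061-4325526, plus strand: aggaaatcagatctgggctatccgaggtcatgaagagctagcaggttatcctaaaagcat
Mmp9, chr3:155992463-155992522, plus strand: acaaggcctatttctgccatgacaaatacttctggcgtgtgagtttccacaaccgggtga

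Values are log2 scaled signals: each probe's signal was divided by an array-wide reference, the upper quartile (percentile 75) of those probes that exceeded background, and taken to log2, so that 0 is the level of the reference. They are compared between arrays and never between probes. Arrays are given in the order of their replicate numbers. A probe was called at a limma adjusted p under 0.05. The Naive, Sham and TBI arrays were scanned in one session and had 16282 to 18245 probes well above background, and the arrays of drug-treated rats were scanned in another and had 20259 to 24984. Markers of hippocampal granule and pyramidal neurons were above background on at least 1 array of every group, apart from Prox1 of granule cells, which was above it on no Sham or TBI array and on 1 Naive array. TBI replicate 1 was closer to the Sham arrays than the other TBI arrays were. Over the tested probes its Pearson correlation with the Sham arrays was 0.972 and 0.974. That of TBI replicate 2 was 0.938 and 0.951, and that of TBI replicate 3 was 0.951 and 0.960. With TBI replicates 2 and 3, TBI replicate 1 had correlations of 0.964 and 0.976, the latter its highest among the Naive, Sham and TBI arrays. Differences of Timp1, Mmp3 and Mmp12 after injury are given with and without it, and most other results with it only.

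Timp1 rose after injury. Its log2 scaled signal was -3.48, -1.76 and -3.67 in the Naive rats and -3.07 and -0.98 in the Sham rats. In the TBI rats it was 0.34, 2.72 and 2.51. All 3 TBI arrays lay above all 5 arrays of uninjured rats, and TBI replicate 1 was the lowest of the 3. The mean was -2.97 ± 1.05 (SD, n = 3) in Naive, -2.02 ± 1.48 (n = 2) in Sham and 1.85 ± 1.32 (n = 3) in TBI. In TBI vs. Sham Timp1 was 14.7-fold higher, a log2 difference of 3.88 with a standard error of 0.76 (limma adjusted p = 0.0126). In TBI vs. Naive it was 28.4-fold higher, a log2 difference of 4.83 with a standard error of 0.68 (adjusted p = 0.00438). Sham and Naive overlapped, with a log2 difference of 0.95 ± 0.76 (SE, adjusted p = 0.515). Without TBI replicate 1 the log2 difference was 4.64 from Sham and 5.58 from Naive. The call against Sham was lost without Sham replicate 1 (2.84, adjusted p = 0.0999) and without TBI replicate 3 (3.55, adjusted p = 0.0533), while that against Naive held with each array left out. The Sham arrays shared a slide with Naive replicates 1 and 2, and the TBI arrays one with Naive replicate 3. With the slide as a block the difference was 4.92 from Sham (adjusted p = 0.276) and 5.52 from Naive (adjusted p = 0.0299), the latter being the difference between the TBI arrays and Naive replicate 3 on the shared slide.

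**Figure D1:**
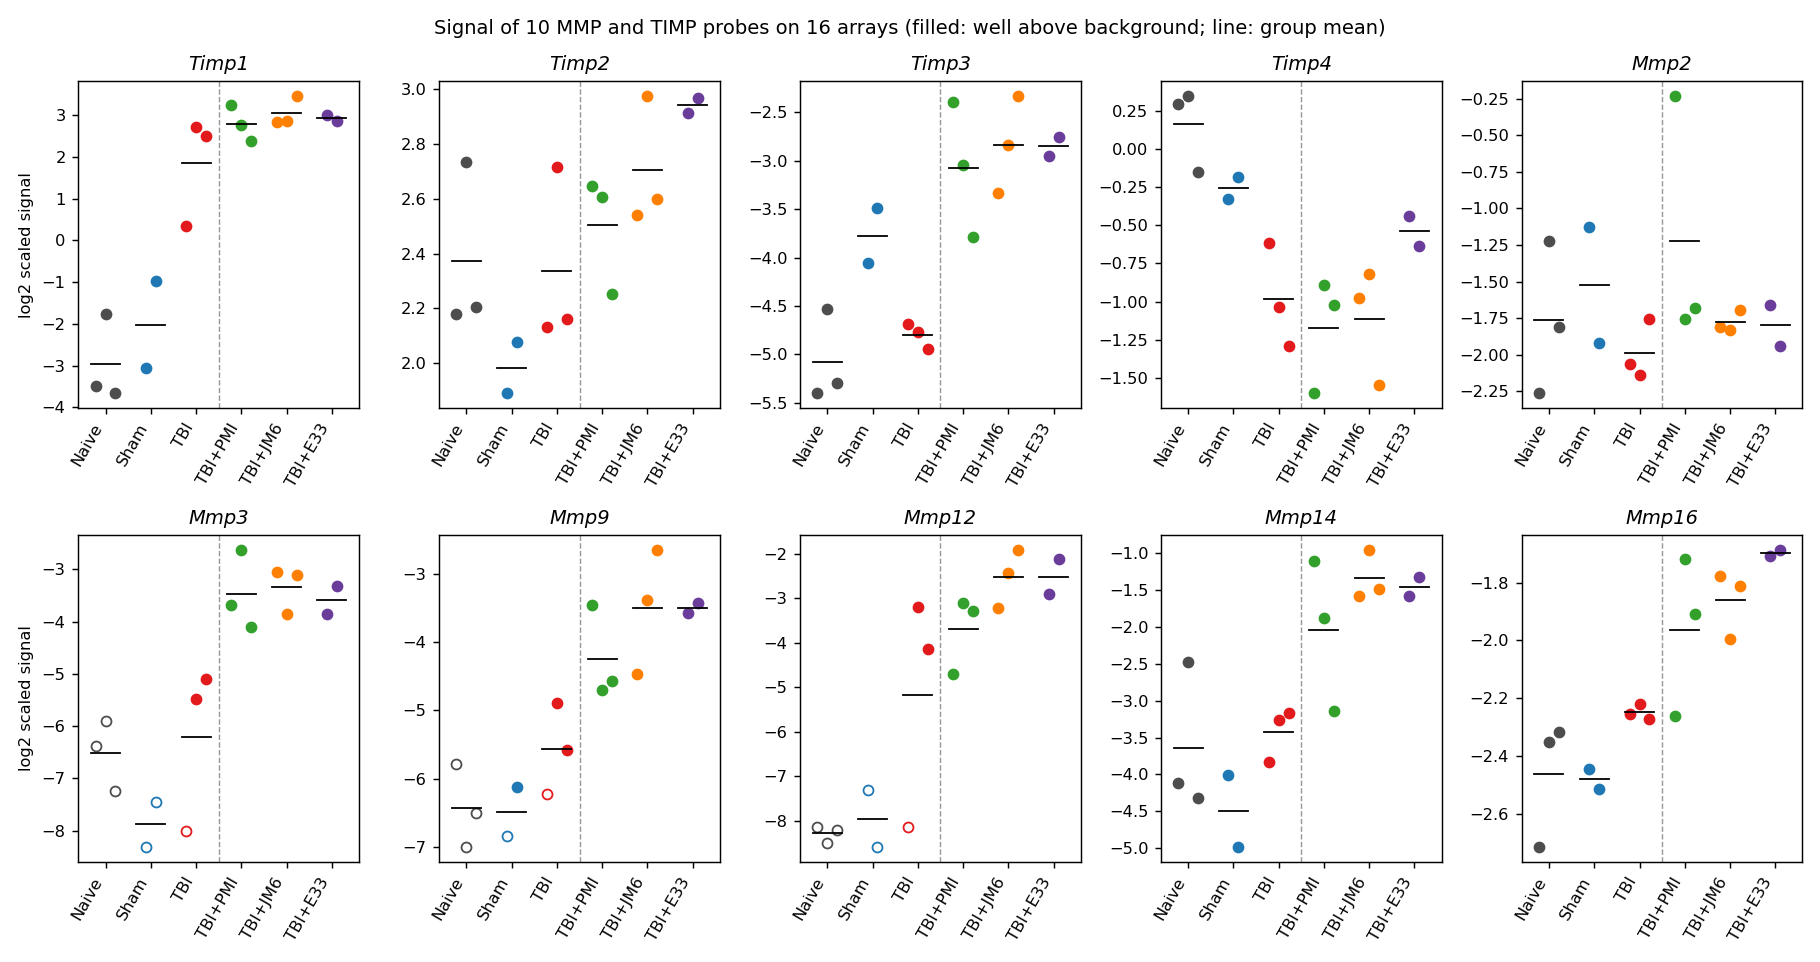
The log2 scaled signal of the 10 genes (y axis) is plotted for every array by group (x axis), with filled points well above background, open points not, and a line at the group mean. The dashed line parts the scan sessions. The TBI arrays of Timp1, from 0.34 to 2.72, sit above all Naive and Sham arrays, and Mmp3 and Mmp12 are open on all 5 arrays of uninjured rats and filled on TBI replicates 2 and 3 and on all 8 arrays of drug-treated rats.

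Timp4, an inhibitor made chiefly in heart and brain, fell. It was 0.29, 0.35 and -0.15 in the Naive rats, -0.33 and -0.18 in the Sham rats and -0.62, -1.04 and -1.29 in the TBI rats. The TBI arrays lay below all Naive and Sham arrays, and Sham lay below Naive without overlap (-0.42 ± 0.28, SE, adjusted p = 0.432). The log2 difference was -1.15 ± 0.25 (SE, 0.452 of the Naive signal, adjusted p = 0.0256) in TBI vs. Naive and -0.73 ± 0.28 (adjusted p = 0.123) in TBI vs. Sham. The second Timp4 probe, which reads another stretch of the transcript, ran the same way, at -1.03 ± 0.28 (adjusted p = 0.0542) and -0.87 ± 0.31 (adjusted p = 0.0984), with groups that did not overlap in either comparison. In Sham vs. Naive the arrays of this second probe overlapped (-0.16 ± 0.31, adjusted p = 0.818). The call of the brighter probe was lost without any one of Naive replicates 1 and 2 and TBI replicates 2 and 3, where the difference was -1.08, -1.05, -1.12 and -0.99, and with the slide as a block (-0.83, adjusted p = 0.408). With that block its difference from Sham was -0.26 (adjusted p = 0.899). The second probe then gave -0.65 from Naive and -0.29 from Sham (adjusted p = 0.589 and 0.892).

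Timp3, which is held in the extracellular matrix, was highest in Sham among the uninjured and untreated groups. Its log2 scaled signal was -5.40, -4.53 and -5.30 in Naive, -4.06 and -3.49 in Sham and -4.69, -4.76 and -4.95 in TBI. Both Sham arrays were above all 6 arrays of the other groups, with a log2 difference of 1.31 ± 0.40 (SE) in Sham vs. Naive (adjusted p = 0.0628) and -1.03 ± 0.40 in TBI vs. Sham (adjusted p = 0.119), and neither passed the threshold. Timp2, the inhibitor that also takes part in the activation of Mmp2 by Mmp14, was between 1.89 and 2.73 in the uninjured rats and between 2.13 and 2.72 in TBI. Its log2 difference was 0.35 ± 0.24 in TBI vs. Sham (adjusted p = 0.378) and -0.04 ± 0.21 in TBI vs. Naive (adjusted p = 0.952).

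Mmp12, the elastase of macrophages, and Mmp3, or stromelysin-1, were well above background on 0 of the 5 arrays of uninjured rats and on 2 of the 3 TBI arrays. Mmp12 was between -8.59 and -7.30 in the uninjured rats and -8.13, -3.20 and -4.15 in the TBI rats. Mmp3 was between -8.31 and -5.90 in the uninjured rats and -8.01, -5.48 and -5.10 in the TBI rats. For both, TBI replicate 1 was at the level of the uninjured rats and the other TBI arrays were above it. Over all 3 TBI arrays Mmp12 was at least 2.22-fold higher than in Sham and at least 1.84-fold higher than in Naive, and neither difference passed the test (fitted log2 differences 2.78 ± 1.07 and 3.11 ± 0.96, SE, adjusted p = 0.119 and 0.0836). The bound sets each dim array at the higher of the probe's own signal and the lowest signal well above background on that array. Mmp3 was at least 1.09-fold higher than in Sham (fitted 1.68 ± 0.73, adjusted p = 0.168), and the bound against Naive was under 1 (fitted 0.31 ± 0.66, adjusted p = 0.855).

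TBI replicate 1 was the array where both genes were at the level of the uninjured rats, so leaving it out favours a difference. Both probes also passed the filter on dim probes only through the drug groups. The values without this array are therefore a description, and their calls support nothing further. Without TBI replicate 1, both genes were called against Sham. Mmp12 was then at least 6.22-fold higher (fitted log2 difference 4.27, adjusted p = 0.00111) and Mmp3 at least 2.03-fold higher (2.59, adjusted p = 0.00698). Against Naive, Mmp12 was called (at least 5.16-fold, 4.60, adjusted p = 0.000809) and Mmp3 was not (1.22, adjusted p = 0.149). Of the 10269 probes above background on none of the Naive and Sham arrays, 176 (1.71%) were above it on at least 2 of the 3 TBI arrays, and 117 (1.14%) were in addition above it on all 8 arrays of drug-treated rats, as Mmp3 and Mmp12 were.

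Mmp9, the gelatinase B of neutrophils and other cells, was above background on Sham replicate 2, on TBI replicates 2 and 3 and on all 8 arrays of drug-treated rats. It was between -7.00 and -5.78 in the uninjured rats and -6.23, -4.90 and -5.57 in TBI. The groups overlapped through TBI replicate 1, and the log2 difference was 0.91 ± 0.55 (SE, adjusted p = 0.324) from Sham and 0.86 ± 0.50 (adjusted p = 0.357, at least 1.30-fold) from Naive. Without that array Mmp9 was at least 1.64-fold higher than in Naive, and it was called against neither group. Mmp14, the membrane-anchored activator of Mmp2, was -4.12, -2.48 and -4.32 in Naive, -4.00 and -4.98 in Sham and -3.83, -3.26 and -3.17 in TBI. TBI lay above Sham without overlap (1.07 ± 0.59, adjusted p = 0.278) and within the Naive range (0.22 ± 0.53, adjusted p = 0.879). Mmp16, a membrane-anchored enzyme of nervous tissue, varied little, from -2.72 to -2.32 in the uninjured rats and from -2.27 to -2.22 in TBI. TBI exceeded every uninjured array by a small margin, with log2 differences of 0.23 ± 0.18 from Sham and 0.21 ± 0.17 from Naive (adjusted p = 0.457 and 0.514).

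Mmp2, or gelatinase A, was -2.27, -1.22 and -1.81 in Naive, -1.12 and -1.92 in Sham and -2.06, -2.14 and -1.76 in TBI. Its log2 difference was -0.46 ± 0.42 (SE) from Sham and -0.22 ± 0.38 from Naive (adjusted p = 0.521 and 0.807), and the second probe gave 0.21 ± 0.37 and -0.02 ± 0.33. The 3 highest of all 16 arrays were TBI+PMI replicate 1 at -0.23, Sham replicate 1 at -1.12 and Naive replicate 2 at -1.22. These arrays also had the highest signals of choroid plexus genes. The summed scaled signal of 6 such markers (Ttr, Folr1, Kl, Otx2, Kcnj13 and Clic6) was 151, 122 and 76.7 there and 0.191 to 7.61 on the other arrays. Naive replicate 2 and TBI+PMI replicate 1 also had the highest sums of 6 fibroblast and meningeal markers, 6.63 and 4.36, and their Mmp14 signals were the highest of their groups. The part of such tissue in the Mmp2 and Mmp14 values was not tested.

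Across the 10 genes, 1 of 12 probes was called in TBI vs. Sham, against 9.41% of all tested probes, and 2 of 12 in TBI vs. Naive, against 4.71%. In Sham vs. Naive limma called 0 of 12, against 8.08%, with 1 probe (Timp3) at an unadjusted p under 0.05 and none by the methods' t-test after adjustment. The median log2 difference of the 6 MMP genes was 0.99 in TBI vs. Sham and 0.26 in TBI vs. Naive, beside -0.03 and 0.04 over all tested probes. That of the 4 TIMP genes was -0.19 and 0.12. The 8 further MMP genes on the array that were tested had medians of -0.03 and -0.28, so the higher median is that of the 6 genes chosen here. None of those 6 was called in either comparison. Mmp3, Mmp9 and Mmp12 among them lay near or below background in the uninjured rats, so their fitted differences rest partly on dim values.

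**Figure D2:**
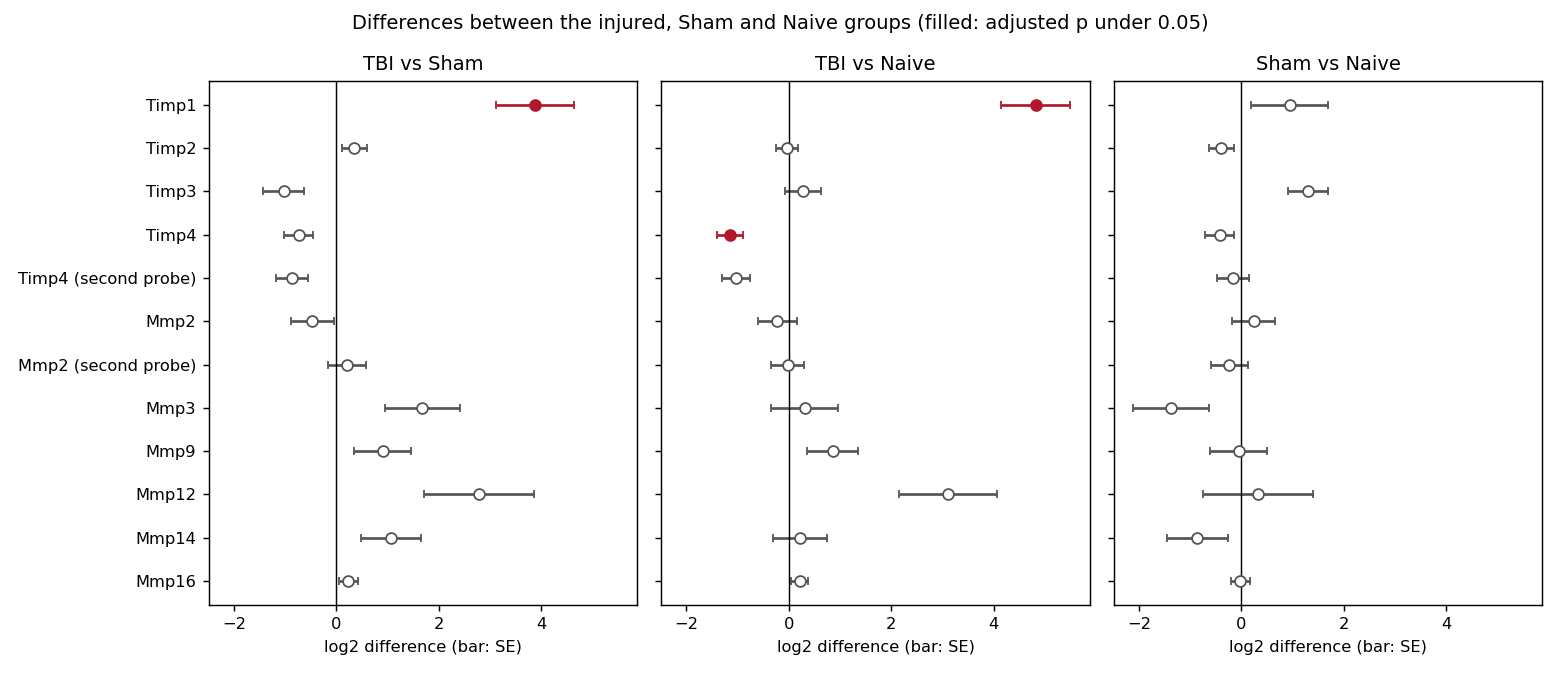
The log2 difference between groups (x axis, bars are standard errors from limma) is plotted for the 12 probes (y axis) in TBI vs. Sham, TBI vs. Naive and Sham vs. Naive. Filled points were called: Timp1 at 3.88 and 4.83 and Timp4 at -1.15.

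Markers of leukocytes differed between the same arrays. The summed scaled signal of 7 neutrophil markers was 0.131 to 0.157 on the Naive arrays, 1.504 and 0.207 on the Sham arrays and 0.361, 2.97 and 1.30 on the TBI arrays, so that TBI replicate 1 was again the lowest of its group. The sum of 1.504 on Sham replicate 1 was nearly all Elane, at 1.37, and without Elane the Sham sums were 0.134 and 0.205 and the Naive sums 0.126 to 0.152. Among them S100a8 and S100a9, which also mark activated monocytes, rose in TBI vs. Sham (log2 differences 3.77 and 2.95, adjusted p = 0.00991 and 0.0388), while the granule genes Mpo, Elane, Camp and Ngp were above background on none of the TBI arrays (Camp was above it on all 3 Naive arrays and fell in TBI vs. Naive). The sum of 9 microglia and macrophage markers was 5.79 to 6.21 in Naive, 6.62 and 9.96 in Sham and 7.96, 13.3 and 9.34 in TBI. Of these Itgam and Cd68 rose and P2ry12 and Tmem119, which mark resting microglia, fell in TBI vs. Sham. Sham replicate 2, the higher of the Sham arrays for Timp1, was the higher for the microglia and macrophage sum, and for the neutrophil sum without Elane but not with it. The part of these cells in the MMP and TIMP values was not tested.

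**Figure D3:**
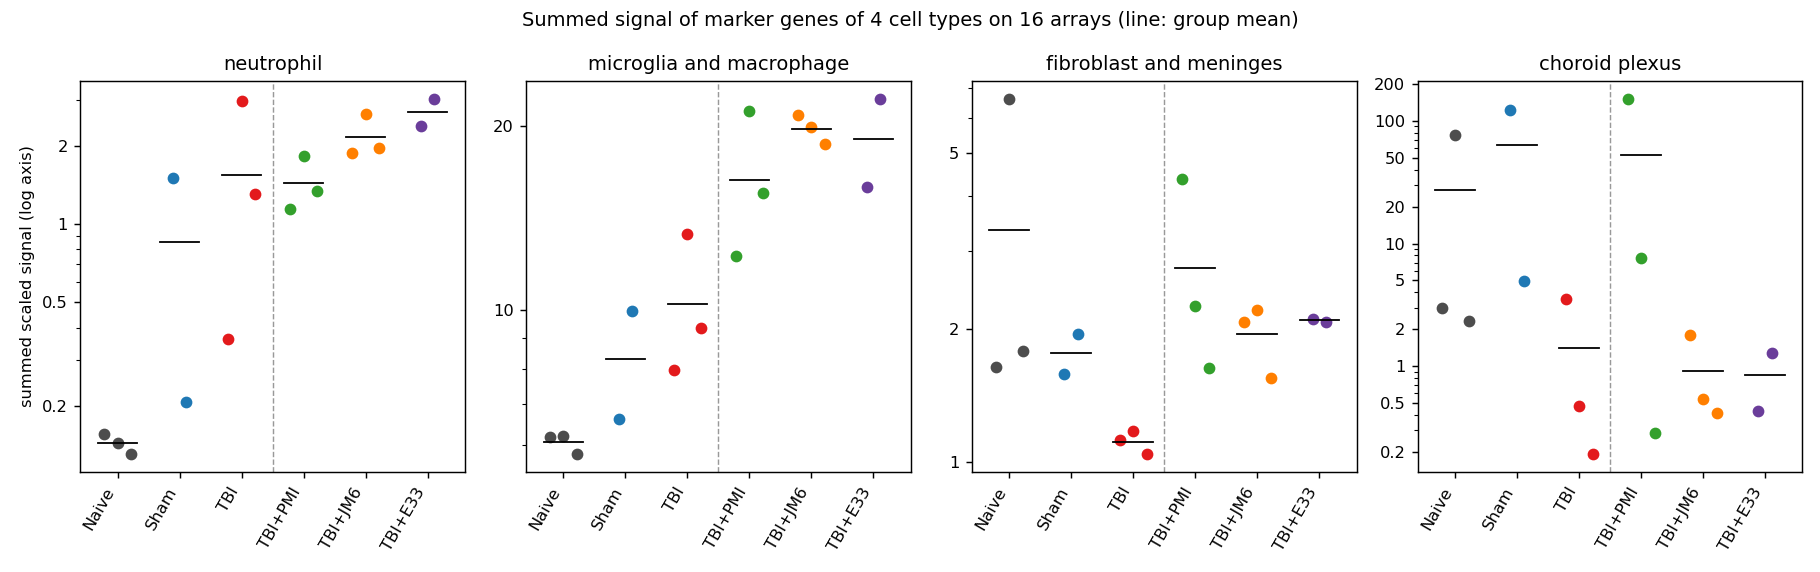
Summed scaled signals of marker genes (y axis, log scale) of 4 cell types are plotted for each array by group, with a line at the group mean. The neutrophil sum is lowest in Naive, at 0.131 to 0.157, its high Sham point is nearly all Elane, and the choroid plexus sum is 76.7 or more on 1 Naive, 1 Sham and 1 TBI+PMI array.

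The genes whose patterns were most like Timp1 over the 8 Naive, Sham and TBI arrays, among 14614 tested probes with a gene name, were Sipa1 (Pearson r = 0.992), Tspo (0.990) and Sla (0.990). Tspo, a mitochondrial outer membrane protein used as a marker of glial activation, was -1.65, -0.47 and -1.31 in Naive, -0.84 and 0.36 in Sham and 1.19, 2.55 and 2.09 in TBI. Those most like Timp4 were S1pr1 (0.994), Lime1 (0.983) and Slc27a5 (0.980). S1pr1, a receptor for sphingosine 1-phosphate, was 1.81, 2.02 and 1.48 in Naive, 1.40 and 1.47 in Sham and 1.08, 0.55 and 0.36 in TBI. These correlations rest on 8 arrays that share slides and group differences, and are given as a description.

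Of 16 further MMP genes on the array, 2 were above background on no array, 4 on all 16 and 10 on some. Of the 8 that were tested, 0 were called in TBI vs. Sham and 0 in TBI vs. Naive. Mmp19, named after its values were seen, exceeded background on 1 Naive array, 1 Sham array and 2 of the 3 TBI arrays (log2 difference 1.46 ± 0.43, SE, from Naive, adjusted p = 0.0710). Mmp12 and Mmp3 belong to a run of 10 neighbouring metalloproteinase genes in the RefSeq annotation of rat chromosome 8, in the order Mmp13, Mmp12, Mmp1b, Mmp3, Mmp1, Mmp10, Mmp8, Mmp27, Mmp20 and Mmp7. Among the neighbours, Mmp1b, Mmp8, Mmp10, Mmp13, Mmp20 and Mmp27 were above background on none of the Naive, Sham and TBI arrays, and Mmp7 was above it on 1 Naive array.

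The stretch before the start of Mmp3 and Mmp12 is shown because these neighbours were detected on the same arrays. RefSeq promoter sequences (GRCr8, 250 bases before the start) were on hand for 6 of the 10 genes, and not for Mmp2, Mmp9, Mmp14 and Mmp16. The motif TGANTCA, the consensus of AP-1 factors, reads alike on both strands and is in capitals. It lies 71 bases before the start of Mmp3 and 87 before that of Mmp12, and was not found before Timp1, Timp2, Timp3 or Timp4. Sites that depart from this exact motif were not searched, so its absence does not mean that no AP-1 site is there. The motif occurs in 6.34% of the 33469 promoters of that length.
Mmp3, chr8:12925131-12925280, plus strand: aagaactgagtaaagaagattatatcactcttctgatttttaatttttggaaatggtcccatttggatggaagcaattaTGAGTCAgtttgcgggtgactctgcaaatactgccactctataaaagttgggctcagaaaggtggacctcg
Mmp12, chr8:12866502-12866651, plus strand: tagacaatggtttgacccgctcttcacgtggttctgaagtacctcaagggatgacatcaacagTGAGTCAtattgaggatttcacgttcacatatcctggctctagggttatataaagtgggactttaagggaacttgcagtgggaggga

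Genes that activate or restrain the MMPs were measured as a list. Of 11 genes of the plasminogen system and MMP regulators, 1 rose and 1 fell in TBI vs. Sham, and 2 rose and 1 fell in TBI vs. Naive. Plau, or urokinase, which generates plasmin, was between -7.47 and -6.25 in the uninjured rats, above background on none of these arrays, and -5.34, -3.73 and -3.62 in the TBI rats, above it on all 3. It was at least 4.25-fold higher than in Sham (adjusted p = 0.00715) and at least 3.53-fold higher than in Naive (adjusted p = 0.00713). Plau passed the filter on dim probes only through the TBI and drug groups, where it was high. Its values are therefore a description, and its calls, which are among the rises counted above, support nothing further. A2m, a broad protease inhibitor of plasma, rose in TBI vs. Naive (1.74 ± 0.42, adjusted p = 0.0370). Serpine2, an inhibitor made by glia, fell by 0.74 on the log2 scale from Naive (adjusted p = 0.0318) and by 1.06 from Sham (adjusted p = 0.0216), the latter against Sham replicate 1 alone, since the spot of Sham replicate 2 carried an outlier flag. Of 13 tested ADAM and ADAMTS proteases, 0 were called in TBI vs. Sham and 1, Adamts15, in TBI vs. Naive, where it fell by 1.70 (adjusted p = 0.0357).

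**Figure D4:**
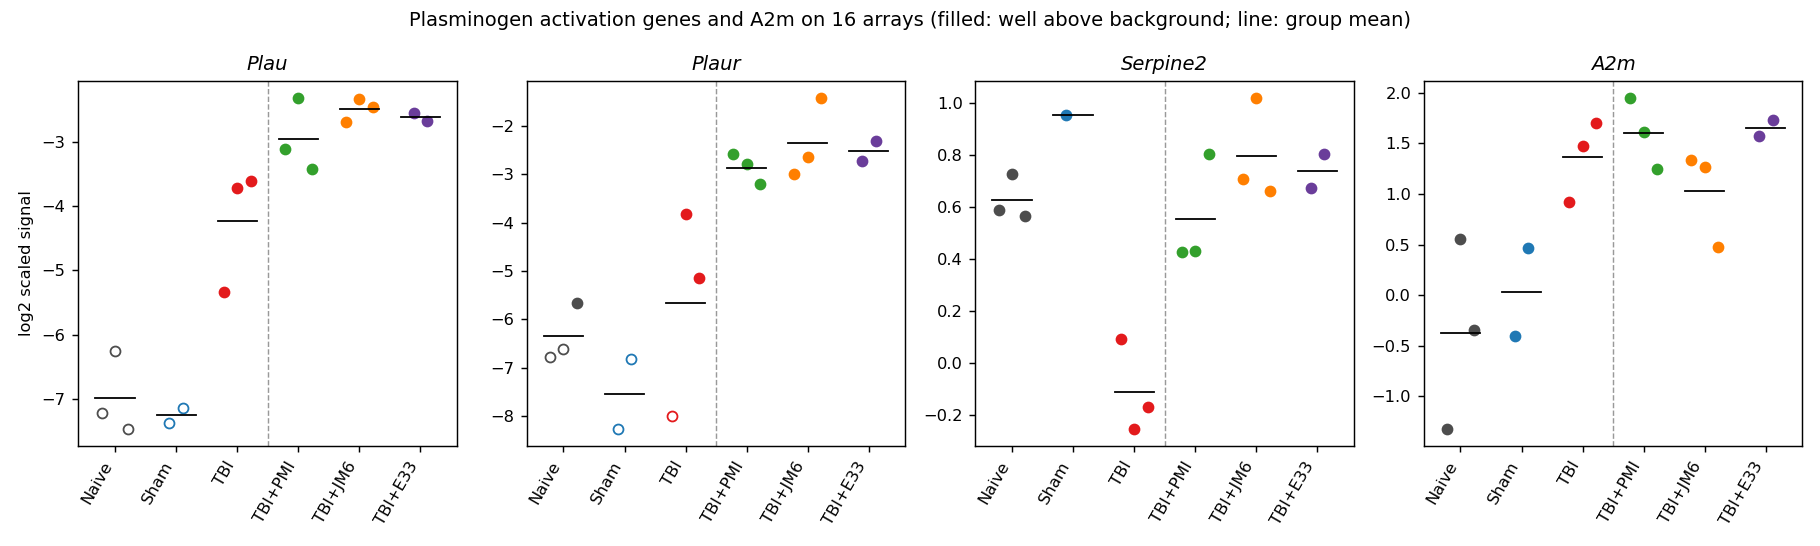
The log2 scaled signal (y axis) of Plau, Plaur (the receptor of urokinase), Serpine2 and A2m is plotted for each array by group, with filled points well above background, open points not, and a line at the group mean. Plau is open on all 5 arrays of uninjured rats and filled on all 3 TBI arrays, from -5.34 to -3.62.

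The drug groups were compared with TBI to ask how each compound changed the injured hippocampus. All their arrays were scanned in another session than the TBI arrays, so drug and session cannot be told apart. The median log2 difference over all tested probes was 0.79 for TBI+PMI, 0.99 for TBI+JM6 and 1.08 for TBI+E33, and limma called 56.7%, 70.1% and 70.3% of them. Of the 12 probes of the family 5, 6 and 8 were called, all of them higher, which is under the background share for PMI and JM6 and close to it for E33. Quantile normalization brought that median close to zero, and then 0 probes of the family were called for PMI, 3 for JM6 and 0 for E33, beside 19.2%, 27.2% and 20.4% of all tested probes. The 3 for JM6 (both Timp4 probes and Mmp16) were lower. The values are therefore given beside the median of all probes. Of the 8 other MMPs 5, 6 and 5 were called for PMI, JM6 and E33, of the 13 ADAM and ADAMTS proteases 6, 8 and 9, and of the 11 plasminogen and regulator genes 7, 8 and 6, with none lower.

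Mmp3, Mmp9 and Mmp12 entered the test through the drug groups alone, the groups where they were high, since in no other group were they above background on every array. Their differences from TBI are therefore given as a description, and their calls support nothing further. Mmp3 was -3.69, -2.62 and -4.11 in TBI+PMI, -3.06, -3.85 and -3.11 in TBI+JM6 and -3.86 and -3.32 in TBI+E33. Every one of these arrays was above the highest TBI array at -5.10, and the log2 difference from TBI was 2.72, 2.86 and 2.61, at the 94.0, 92.3 and 85.0 percentile of all tested probes. Mmp12 was -4.71, -3.10 and -3.29, then -3.22, -2.43 and -1.91, and -2.90 and -2.12. Its log2 difference was 1.46 for PMI (adjusted p = 0.202), 2.65 for JM6 (adjusted p = 0.0259) and 2.65 for E33 (adjusted p = 0.0413), and the PMI and JM6 arrays overlapped with TBI replicate 2. Without TBI replicate 1, Mmp12 was called for none of the drugs. Under quantile normalization the differences of Mmp3 were 1.40, 1.31 and 0.77 and those of Mmp12 0.28, 1.47 and 1.33, and none passed.

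Mmp9 ranged from -4.70 to -2.65 and Mmp14 from -3.15 to -0.96 over the 8 arrays of drug-treated rats. Both lay above all TBI arrays, Mmp14 by a small margin (lowest -3.15, against -3.17 on the highest TBI array). The share of all tested probes that did so is not given here. The log2 differences of Mmp9 were 1.32, 2.07 and 2.06, at the 70.5, 80.0 and 76.6 percentile of all tested probes. Those of Mmp14 were 1.37, 2.08 and 1.96, at the 71.9, 80.3 and 74.7 percentile. Mmp14 was above background on all 16 arrays. Without TBI replicate 1, neither Mmp9 nor Mmp14 was called for PMI. Under quantile normalization the differences of Mmp9 were -0.19, 0.48 and 0.22, so that the sign turned for PMI. Those of Mmp14 were then 0.51, 1.12 and 0.93, and none of either gene passed. Timp3 ranged from -3.79 to -2.33, above all TBI arrays, with differences of 1.73, 1.97 and 1.95, at the 79.9, 78.1 and 74.4 percentile. Under quantile normalization its differences were 0.57, 0.64 and 0.46, and none passed. The Mmp2 probes disagreed here: the brighter gave 0.76, 0.21 and 0.19 and was not called, and the second gave 1.67, 1.21 and 1.40 and was called in all 3 comparisons. Under quantile normalization the second Mmp2 probe gave 0.58, -0.21 and -0.12, and was not called.

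Timp1 stayed near its level in TBI replicates 2 and 3, at 3.24, 2.75 and 2.38 in TBI+PMI, 2.82, 2.87 and 3.46 in TBI+JM6 and 3.01 and 2.86 in TBI+E33. In the order of group means, Naive and Sham overlapped, Sham and TBI did not, and TBI overlapped with TBI+PMI, the next above it. TBI+JM6 and TBI+E33 lay above all TBI arrays and overlapped with TBI+PMI and with each other. The log2 differences from TBI, 0.937, 1.196 and 1.080 (SE 0.68, 0.68 and 0.76), were not called (adjusted p = 0.245, 0.127 and 0.208) and lay close to the median of all probes, at the 56.9, 58.0 and 50.2 percentile.

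Timp4 was low relative to other probes. It was -1.60, -0.89 and -1.02 in TBI+PMI, -0.98, -0.82 and -1.55 in TBI+JM6 and -0.44 and -0.64 in TBI+E33. The log2 difference was -0.19 for PMI and -0.13 for JM6, at the 1.91 and 2.17 percentile of all tested probes, and 0.44 for E33, at the 18.5 percentile, and none was called. Under quantile normalization it was -0.83 (adjusted p = 0.0614), -0.92 (adjusted p = 0.0326) and -0.36 (adjusted p = 0.444). Under percentile 75 of all probes Timp4 was called lower for PMI (-0.83, adjusted p = 0.0353) and JM6 (-0.92, adjusted p = 0.0189), and so it was under scaling to the E1A control spots (-1.204 and -1.201, adjusted p = 0.0275 and 0.0250). In the authors' matrix it was called lower for JM6 (-0.90, adjusted p = 0.0306) and not for PMI (-0.80, adjusted p = 0.0612). For E33 it was called under none of these. Over the 30 alternatives, each array left out included, it was called in 2 for PMI, 4 for JM6 and 0 for E33. Its highest difference among them was 0.03 for PMI, 0.20 for JM6 and 0.63 for E33. The second probe was at the 1.62, 1.60 and 9.68 percentile. Under quantile normalization this second probe gave -0.86, -0.99 and -0.55, called for JM6 only. With normexp background correction it gave -0.12, 0.06 and 0.20, and was not called. Timp2 and Mmp16 changed by less than the median of all probes in each drug group, with log2 differences of 0.17 to 0.60 and 0.28 to 0.55.

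**Figure D5:**
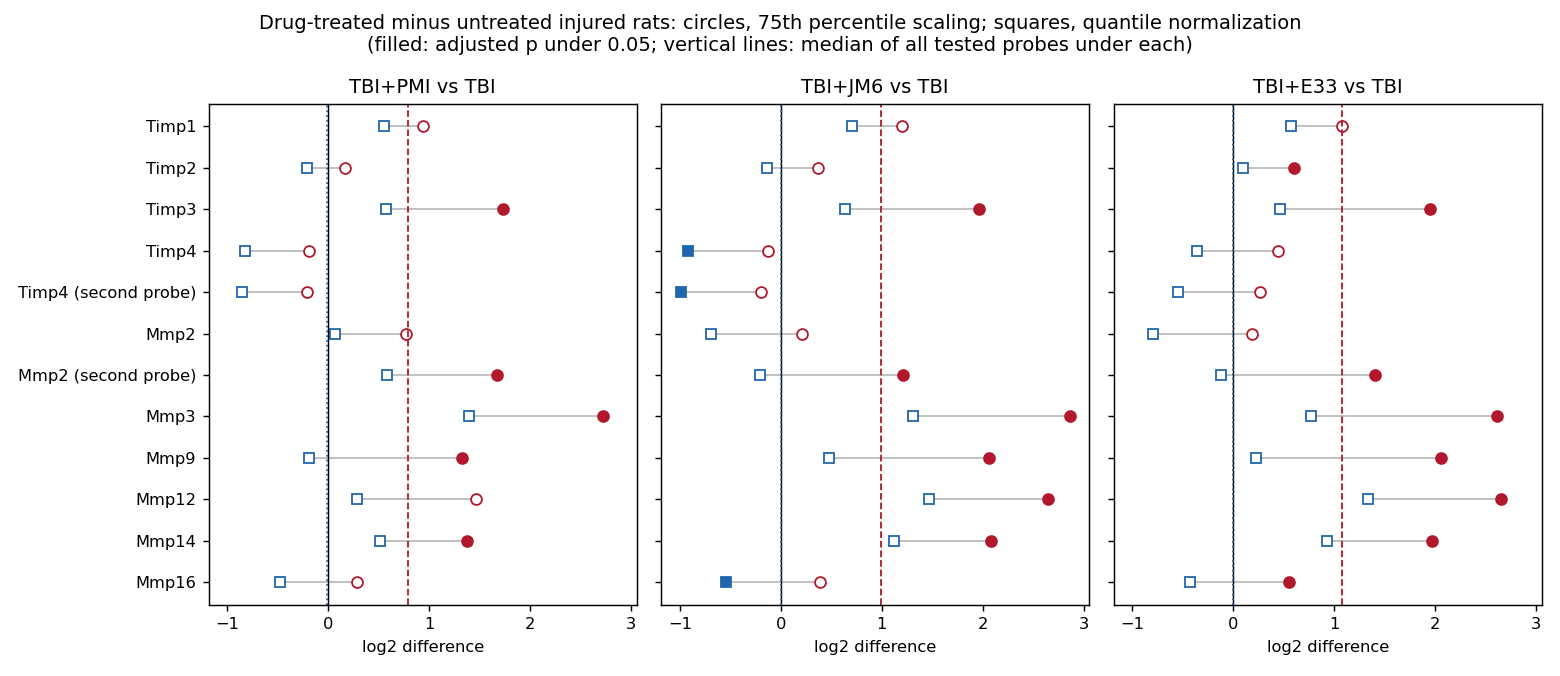
The log2 difference from TBI (x axis) of the 12 probes (y axis) is plotted for each drug group under the scaling used here (circles) and quantile normalization (squares), filled where the adjusted p was under 0.05. Vertical lines give the median of all tested probes under each. Mmp3 lies to the right of the median and Timp4 to its left in all 3 panels.

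Among the drug groups themselves, which shared a scan session, no member passed the test. The TBI+PMI arrays and TBI+JM6 replicate 1 lay on one slide, and TBI+JM6 replicates 2 and 3 and the TBI+E33 arrays on another. A difference between TBI+E33 and TBI+PMI is therefore also one between slides. A moderated F test over TBI+PMI, TBI+JM6 and TBI+E33 called 0 of the 12 probes, against 0.0482% of all tested probes, with 0 at an unadjusted p under 0.05 and adjusted p from 0.580 to 0.994. The lowest was that of Timp4, where the E33 arrays were above all PMI arrays and all JM6 arrays, with a log2 difference of 0.63 ± 0.28 (SE) from PMI and 0.57 ± 0.28 from JM6. The standard errors of the pairwise differences, up to 1.07 for Mmp12, leave room for differences of that size.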

How the data were processed

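Hippocampal RNA of 16 rats, 1 rat per array, was amplified by the authors with RiboAmp HS or MessageAmp II (which rat had which is not stated) and hybridised to single-colour Agilent arrays. The deposited scanner files hold spot intensity values made with Feature Extraction 9.5.3.1 (processed signal, background-subtracted and detrended), not normalized between arrays, with probe positions on rn4. The deposited series matrix holds the authors' processed values on a linear ratio scale, each column with a median of 0.14. Its centring is not stated, its direction followed the scanner values (r = 0.997 to 0.999), and it served as an alternative only. The methods give 3 rats for each group, and 2 Sham and 2 TBI+E33 arrays were analysed here.

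Spots of a probe were averaged without those flagged as outliers, divided by percentile 75 of the probes well above background on the array, and taken to log2. A probe was tested if some group had it well above background throughout (22827 of 30367) in 1 limma 3.58.1 fit of 16 arrays (R 4.3.3, 10 residual degrees of freedom), with Benjamini-Hochberg adjustment over all of them. The scripts were tested on simulated data. The study's filter was kept and limma replaced its t-test. All 10 genes were named. Genes of 3 further lists (other MMPs, ADAM and ADAMTS proteases, plasminogen system and MMP regulators) were named where called without overlap between groups, and others named were chosen after their values were seen. The genes and lists were chosen with earlier results of these data known. Alternatives covered scaling, background correction, filters, GC content, probe choice, test, slide, replicate number, the authors' matrix and each array left out. The values of 1 listed gene are not reported here. Arrays carry no counts, and the number of arrays limits the precision.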

Additional observations from a re-analysis of the deposited data

How the results depend on the processing

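Groups held 2 or 3 arrays, drug and scan session cannot be told apart, and Mmp3, Mmp9 and Mmp12 lay near or below background in uninjured rats. Of the 12 probes, 1 was called in TBI vs. Sham, and 0 with normexp background correction, the methods' t-test after adjustment, limma on the compared groups alone or the slide as a block. With single arrays left out the count was 0 to 3, with 0 without Sham replicate 1 or TBI replicate 3 and 3 without TBI replicate 1. In TBI vs. Naive 2 were called, 1 with normexp or the slide block, 0 with the adjusted t-test or the compared groups alone, and 1 to 4 with single arrays left out. Timp1 in TBI vs. Sham was then 3.54 with normexp (adjusted p = 0.0868), and Timp4 in TBI vs. Naive was -0.82 under scaling to the E1A control spots (adjusted p = 0.179). Of all tested probes, normexp called 0.0175% in TBI vs. Sham and 0.175% in TBI vs. Naive, beside 9.41% and 4.71% in the main setting. The shares for the t-test, the compared groups alone and the slide block are not given here. In Sham vs. Naive 0 were called, and 1, Timp3, under percentile 75 of all probes, the E1A spots or the filter for all arrays, with 0 to 1 over single arrays left out (1 without Naive replicate 2, TBI+PMI replicate 1 or TBI+PMI replicate 3). In every comparison of drug groups with one another the count was 0 under each alternative.

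For TBI+PMI vs. TBI the count was 5, all higher, but 0 with quantile normalization, normexp or the authors' matrix, 3 with the E1A spots, all lower (Timp2 and both Timp4 probes), 3 with the filter for all arrays, all higher, 2 with either form of the t-test, and 3 to 5 with single arrays left out. For TBI+JM6 it was 6, all higher, but 3 with quantile normalization or the matrix, all lower (Mmp16 and Timp4), 3 with the E1A spots (Mmp3 higher and Timp4 lower), 1 with normexp, and 5 to 7 with single arrays left out. For TBI+E33 it was 8, all higher, but 0 with quantile normalization, the E1A spots, normexp or the matrix, 1 with percentile 75 of all probes, 4 with the adjusted and 5 with the unadjusted t-test, 5 with the filter for all arrays or the compared groups alone, and 2 to 8 with single arrays left out (5 without TBI+E33 replicate 1, 2 without TBI+E33 replicate 2). Of all tested probes, normexp called 6.29%, 21.5% and 14% for PMI, JM6 and E33, beside 56.7%, 70.1% and 70.3% in the main setting. Under percentile 75 of all probes the calls for PMI and JM6 were not all higher. For PMI Mmp3, Timp3 and the second Mmp2 probe were called higher, and Timp2 and both Timp4 probes lower. For JM6 Mmp3, Mmp9 and Timp3 were called higher, and both Timp4 probes lower. Signs turned in the following log2 differences from TBI. Mmp9 under PMI was -0.19 with quantile normalization and -0.31 in the matrix. Timp2 was -0.48 under PMI and -0.23 under E33 with percentile 75 of all probes, and -0.85 and -0.66 with the E1A spots. Mmp16 was -0.54 under JM6 and -0.43 under E33 with quantile normalization, -0.53 and -0.41 in the matrix, and under E33 -0.28 with percentile 75 of all probes and -0.72 with the E1A spots. The median of all probes differs between these settings, and the cause of the turned signs and of the other changes was not tested.

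With the replicate block, 1 probe was called in TBI vs. Sham, 3 in TBI vs. Naive, 0 in Sham vs. Naive, 4, 6 and 8 in the PMI, JM6 and E33 comparisons and 0 among the drug groups. Arrays with the same number had correlations of -0.185 to 0.182 between their deviations, so the numbers name arrays and do not pair them. Of 562 values of called differences under the alternatives, counted for 1 probe per gene (the brighter), 418 kept direction and call, 136 lost the call and 8 turned sign. The second probes are not in this count. The second Mmp2 probe turned sign for JM6 and E33 with quantile normalization (-0.21 and -0.12) and in the authors' matrix (-0.19 and -0.08).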
